A study of Homo sapiens with 4 samples.

Results

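The genes examined were 10 that encode core proteins of the microRNA (miRNA) pathway: DGCR8, XPO5, DICER1, TARBP2, EIF2C1, EIF2C2, EIF2C3, EIF2C4, TNRC6A and TNRC6B. They were found as every non-control spot of the array whose gene name was one of these symbols, which gave 19 probes of 41000 and 10 gene names of 30982. Each of the 19 probes was printed as 1 spot. The array uses older names, and EIF2C1 to EIF2C4 are the Argonaute genes now called AGO1 to AGO4.

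The study asked which messenger RNAs change when a miRNA is restored to squamous carcinoma cells. FaDu cells, a line from a hypopharyngeal squamous cell carcinoma, and HSC3 cells, a line from a tongue squamous cell carcinoma, were transfected with miR-489, miR-504 or a control miRNA, and total RNA was taken 72 h later. On each of 4 two-colour arrays, RNA of a control transfectant was labelled with the green dye Cy3 and RNA of a miR-489 or miR-504 transfectant of the same line with the red dye Cy5. The groups were therefore FaDu with miR-489, FaDu with miR-504, HSC3 with miR-489 and HSC3 with miR-504, with 1 array each. Cells of all groups, controls included, carried a transfected small RNA, and no untransfected cells were compared. The dyes were not swapped, so a dye effect and an effect of a miRNA against the control cannot be told apart.

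A cell makes a miRNA in steps, and the proteins studied here act one after the other in them. In the nucleus DGCR8 guides the RNase Drosha to a long primary transcript, and XPO5 (exportin 5) carries the hairpin that Drosha releases to the cytoplasm. There DICER1 cuts the hairpin to a short duplex with the help of TARBP2, and an Argonaute protein keeps 1 strand as its guide. TNRC6A and TNRC6B belong to the GW182 family, which ties Argonaute to the enzymes that remove the tail and the cap of a bound messenger. A transfected miRNA mimic enters this path late, at Argonaute, and recognises messengers mainly through its seed, which is bases 2 to 8.

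The mature sequences are shown because each ratio given here compares cells given one of them with cells given the control. They are RefSeq entries, written 5′ to 3′ with the seed in capitals. The labels do not say which arm of a hairpin was used, so both arms of miR-504 are given, and the table at hand held 1 arm of miR-489.
hsa-miR-489-3p: gUGACAUCacauauacggcagc
hsa-miR-504-5p: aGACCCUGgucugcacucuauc
hsa-miR-504-3p: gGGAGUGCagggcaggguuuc
The genes of these RNAs lie on the minus strand of GRCh38.p14, with miR-489-3p at chr7:93483947-93483968, miR-504-5p at chrX:138667760-138667781 and miR-504-3p at chrX:138667724-138667744. The 3 seeds differ from one another. The sequence of the control miRNA was not given in the sources used here.

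The value used was the log2 ratio of Cy5 over Cy3 after subtraction of the local background, minus the median ratio of the array. A value of 0 therefore means the same ratio as the median probe, and a value of 1 means 2-fold higher in the miRNA transfectant. Between 58.2% and 59.2% of spots had a Cy3 signal well above background, and between 61.2% and 62.6% had such a Cy5 signal. The SD between replicate spots of a probe on an array, over 264 probes with replicate spots, was 0.0629 to 0.0732 on the log2 scale, which covers technical error only. Median ratios depended on brightness, and lay between −0.41 and −0.28 in the dimmest quartile of probes and between 0.11 and 0.18 in the brightest on the 4 arrays. All epithelial markers looked at that the array names (KRT5, KRT14, KRT17, TP73L, CDH1, DSG3, SFN and TACSTD1) were well above background in Cy3 on 4 of 4 arrays. Of the other markers PTPRC, CD3E, PECAM1, COL3A1 and DES were so on 0, VWF on 1, COL1A1 on 2 and CD14 on 4 arrays, CD14 at −3.41 to −2.24 on the log2 scale relative to the 75th percentile of its array. The brightest probe of PTPN11, the miR-489 target of the study, read −3.25 in FaDu and −3.22 in HSC3 with miR-489, and −1.29 and −1.04 with miR-504. The next brightest, A_23_P99027, read −1.07 and −1.38 with miR-489 and 0.35 and 0.29 with miR-504. The remaining PTPN11 probes, A_23_P105436 and A_23_P204090, were dimmer, with Cy3 signals of 56 to 128.5. With miR-489 they read −2.79 and −1.83 in FaDu and −1.66 and −1.22 in HSC3. With miR-504 they read −1.07 and −1.05 in FaDu and −1.36 and −1.41 in HSC3.

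The largest change among the members was in TNRC6A. Its probe A_23_P349310 gave background-subtracted Cy3 signals of 422, 472, 229.5 and 303 in the control transfectants and Cy5 signals of 2631, 2639.5, 1140 and 1200 in the miRNA transfectants, listed first for FaDu with miR-489 and FaDu with miR-504, then for HSC3 with miR-489 and with miR-504, as in all lists of 4 values. The log2 ratios were 2.06, 1.83, 1.73 and 1.54, or 4.17-, 3.56-, 3.31- and 2.91-fold. All Cy5 signals lay above all Cy3 signals, and the ratios were higher in FaDu than in HSC3. Its mean ratio of 1.79 ranked 13 among 15604 genes that were well above background in both channels on all arrays. Fitted with FaDu and HSC3 as the 2 replicates of each miRNA, limma gave 1.89 (SE 0.122, n = 2 arrays, adjusted p = 0.000884) for miR-489 and 1.69 (SE 0.122, n = 2, adjusted p = 0.00142) for miR-504. The ratios stayed between 1.31 and 2.05 over the arrays under the other background corrections and normalisations.

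That rise rests on a single TNRC6A probe, matched by the array to transcript variant 1 (NM_014494). The probe A_23_P377806, matched to variant 2 (NM_020847), had Cy3 signals of 35, 35, 25.5 and 27.5, well above background on the FaDu miR-504 array alone, and Cy5 signals of 55.5, 57, 24 and 18.5. On that array its ratio was 0.053. The third probe, A_24_P917862, was not well above background in either channel on any array. The value of A_23_P377806 depended on the normalisation, and the deposited log ratio gave 1.04, 0.55, 1.66 and 0.59 on the log2 scale, with Cy5 well above background on the first 3 arrays. The 3 genes whose 4 ratios came closest to those of TNRC6A were EIF4EBP1 (2.07, 1.87, 1.92 and 1.73), IRF2BP1 (2.22, 1.78, 1.97 and 1.47) and C2orf31 (1.87, 1.89, 1.93 and 1.42). Likeness was the root mean square difference over the 4 arrays among 15604 genes, and was 0.136, 0.152 and 0.153.

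TARBP2, the partner of DICER1, was likewise higher than the control on every array. Its probe A_23_P87603 had Cy3 signals of 759, 722.5, 976 and 1109 and Cy5 signals of 2213, 2209.5, 2703 and 2891. The log2 ratios were 0.96, 0.96, 0.88 and 0.94, which is 1.95-, 1.95-, 1.85- and 1.91-fold. These 4 values were closer together than those of any other probe of a member that was tested. The limma estimates were 0.92 (SE 0.0768, adjusted p = 0.00117) for miR-489 and 0.95 (SE 0.0768, adjusted p = 0.00157) for miR-504. By its mean over the arrays it ranked 449 among 15604 genes.

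**Figure D1:**
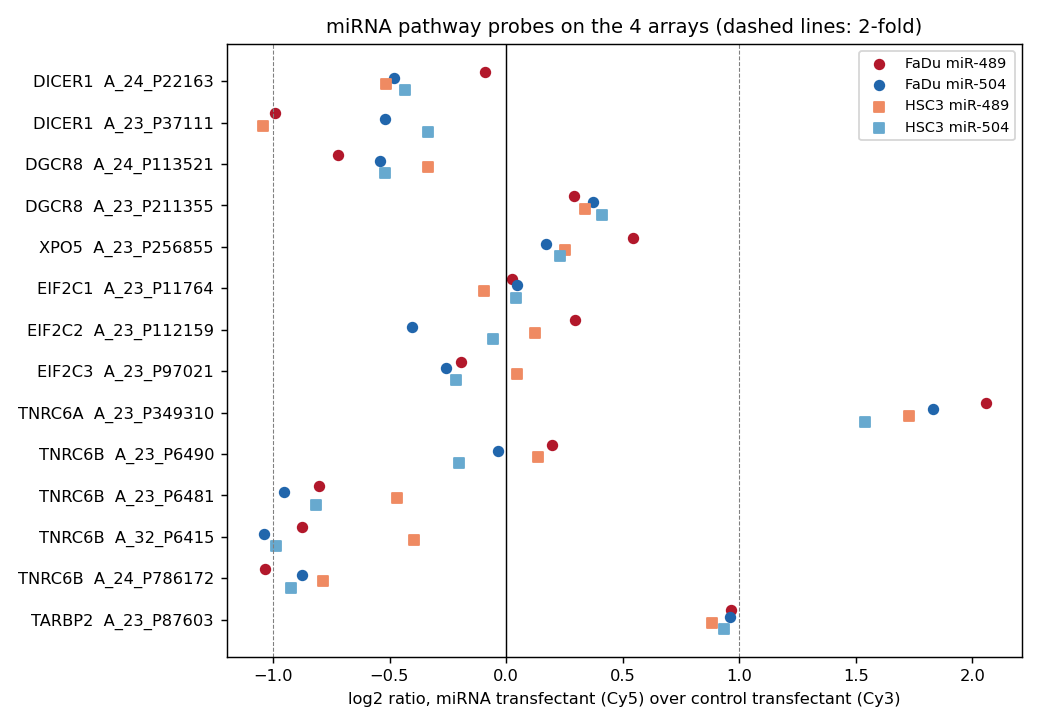
Log2 ratio of Cy5 (miRNA transfectant) over Cy3 (control transfectant), after median centring, for the 14 member probes whose Cy3 was well above background on all 4 arrays; each point is 1 array, circles are FaDu and squares HSC3. TNRC6A lies between 1.54 and 2.06 and TARBP2 between 0.88 and 0.96, whereas 3 of the 4 TNRC6B probes lie below 0 on every array.

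In the other GW182 gene, TNRC6B, the probes did not move together. The brightest, A_23_P6490, had Cy3 signals of 961, 873.5, 566 and 546 and log2 ratios of 0.20, −0.03, 0.14 and −0.20. It passed the limma test for neither miRNA, at 0.17 (adjusted p = 0.143) for miR-489 and −0.12 (adjusted p = 0.286) for miR-504. The remaining 3 probes were lower on every array.
Probe A_23_P6481 had Cy3 signals of 610, 529, 396 and 539.5 and ratios of −0.80, −0.95, −0.47 and −0.81. Probe A_24_P786172 had Cy3 signals of 172, 138, 105 and 149.5 and ratios of −1.04, −0.88, −0.78 and −0.92. Probe A_32_P6415 had Cy3 signals of 152.5, 161.5, 119.5 and 180.5 and ratios of −0.87, −1.04, −0.39 and −0.99. The least negative value of each of these 3 probes was on the HSC3 miR-489 array. In limma the estimates for miR-489 were, in that order, −0.63 (SE 0.109), −0.91 (SE 0.0935) and −0.63 (SE 0.130), with adjusted p-values of 0.00652, 0.00169 and 0.0113. For miR-504 the estimates were −0.88 (SE 0.109), −0.90 (SE 0.0935) and −1.01 (SE 0.130), with adjusted p-values of 0.00336, 0.00238 and 0.00367. The size of the fall at the dimmer probes depended on the normalisation. With normexp and loess A_24_P786172 gave −0.56 for miR-489 and −0.58 for miR-504, and A_32_P6415 gave −0.40 and −0.70. With the deposited log ratio the first gave −0.91 and −0.99 and the second −0.65 and −1.09. Without the filter on dim probes the miR-489 call of A_32_P6415 was lost (adjusted p = 0.0597). That setting also lowered the share of calls over the whole array, to 32.8% of 34088 probes for miR-489, from 26.5% lower and 30.5% higher.

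All 4 TNRC6B probes carry the same accession, NM_015088. In the direction of transcription A_23_P6490, which passed for neither miRNA, came first, and the others followed 0.51, 5.535 and 11.973 kb downstream in the genome, in the order A_23_P6481, A_24_P786172 and A_32_P6415. The mean ratio over the 4 arrays differed by 0.93 between the highest and the lowest probe, a range at percentile 86.72 among 3952 genes with at least 2 probes well above background, whose median range was 0.39. A gene-level value of TNRC6B therefore depends on the probe taken.

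DGCR8, the partner of Drosha, had a pair of probes that moved in opposite directions. The brighter, A_24_P113521, had Cy3 signals of 760.5, 778, 1619 and 1659, Cy5 signals of 691, 840, 1926.5 and 1576, and ratios of −0.72, −0.54, −0.33 and −0.52. Probe A_23_P211355 lies 24.785 kb further downstream in the genome. It had Cy3 signals of 418, 459, 581 and 680, Cy5 signals of 765, 934, 1103 and 1233, and ratios of 0.29, 0.37, 0.34 and 0.41. Every value of the first was below 0 and every value of the second above it. In limma the first fell by 0.53 (SE 0.113) with either miRNA (adjusted p = 0.0130 for miR-489 and 0.0150 for miR-504). The second rose by 0.32 (SE 0.0759, adjusted p = 0.0188) with miR-489 and by 0.39 (SE 0.0759, adjusted p = 0.0112) with miR-504. Each of these calls was lost when some single array was left out. For miR-489 both were lost without the FaDu miR-489 array (adjusted p = 0.0686 and 0.0669) and the second also without the HSC3 miR-489 array (0.0931). For miR-504 both were lost without the FaDu miR-504 array (0.115 and 0.0949) and without the HSC3 miR-504 array (0.104 and 0.110). Without the filter on dim probes all 4 were lost (adjusted p = 0.0557 to 0.0711), a setting that also lowered the share of calls over the whole array. The rise with miR-489 was lost with the deposited log ratio (0.19, adjusted p = 0.0734) and with normexp and loess (0.17, adjusted p = 0.0648). The range between these probes, 0.88, was at percentile 84.79 of the same 3952 genes.

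DICER1, the enzyme that cuts the hairpin, was lower than the control by at least 1 probe with each miRNA. Probe A_23_P37111 had Cy3 signals of 2184.5, 1928.5, 1554 and 1820 and Cy5 signals of 1645, 2110.5, 1131 and 1967.5. Its ratios were −0.99, −0.52, −1.04 and −0.33, or 0.503-, 0.697-, 0.485- and 0.793-fold of the control. Both miR-489 arrays thus lay below both miR-504 arrays, and only with miR-489 was Cy5 the lower signal before centring. The limma estimates were −1.02 (SE 0.0860, adjusted p = 0.00119) for miR-489 and −0.43 (SE 0.0860, adjusted p = 0.0126) for miR-504.
The brighter DICER1 probe, A_24_P22163, lies 1.292 kb upstream of it in the genome. This brighter probe had Cy3 signals of 2420, 2346, 1926.5 and 1787.5 and Cy5 signals of 3395.5, 2637.5, 2022 and 1802.5. Its ratios were −0.09, −0.48, −0.52 and −0.43, so that the FaDu miR-489 array stood apart from the other 3, and its value turned to 0.048 without background subtraction. It fell with miR-504 (−0.46, SE 0.119, adjusted p = 0.0276) and did not pass the test with miR-489 (−0.30, SE 0.119, adjusted p = 0.0790). It passed without the FaDu miR-489 array (−0.52, adjusted p = 0.0273), with normexp and loess (−0.45, adjusted p = 0.00696) and with the deposited log ratio (−0.40, adjusted p = 0.0376). The miR-504 calls of both DICER1 probes were lost without the FaDu miR-504 array (adjusted p = 0.174 for A_24_P22163 and 0.140 for A_23_P37111) and without the HSC3 miR-504 array (0.141 and 0.0590), and also without the filter on dim probes (0.0973 and 0.0615).

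**Figure D2:**
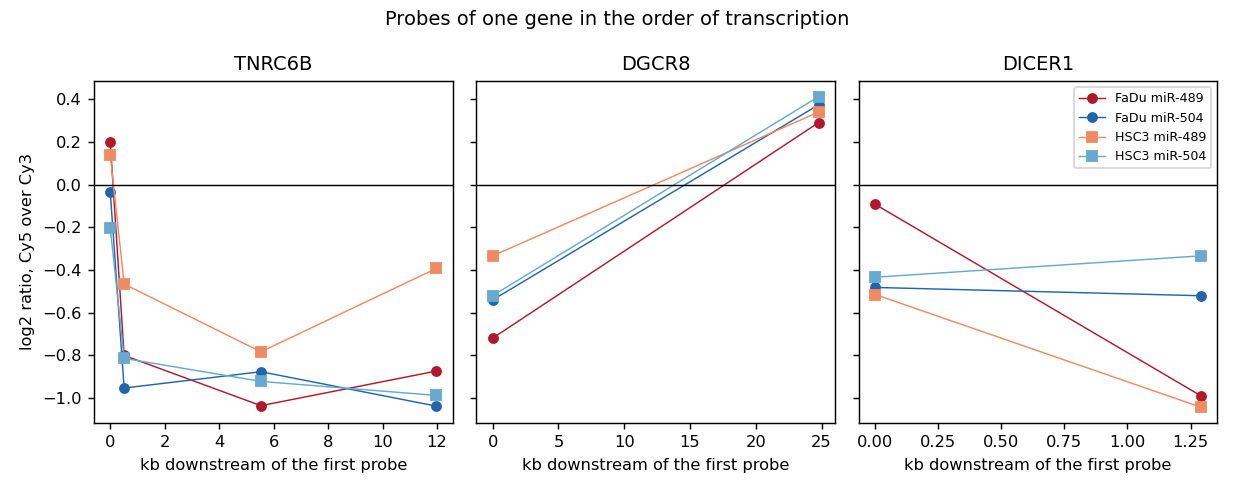
Log2 ratio of Cy5 over Cy3 on the 4 arrays (vertical axis), for TNRC6B, DGCR8 and DICER1. The horizontal axis is the distance in kb along the genome of each probe from the most upstream measured probe of its gene. Lines join the probes of 1 array. The first TNRC6B probe lies between −0.20 and 0.20 and the 3 downstream ones between −1.04 and −0.39, and the DGCR8 probes lie on opposite sides of 0.

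XPO5, the export receptor of the hairpin, was higher than the control with miR-489. Its only probe, A_23_P256855, had Cy3 signals of 499, 582, 216 and 186.5 and Cy5 signals of 1087, 1028, 385.5 and 298.5. The ratios were 0.54, 0.17, 0.25 and 0.23, with the FaDu miR-489 array above the others. In limma it rose by 0.40 (SE 0.0992, adjusted p = 0.0212) with miR-489, and the miR-504 estimate of 0.20 did not pass (adjusted p = 0.147). Without the FaDu miR-489 array the miR-489 estimate was 0.25 (adjusted p = 0.131), and without the filter on dim probes the call was lost (adjusted p = 0.0783).

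The Argonaute genes, whose proteins hold the guide strand, lay between −0.40 and 0.30 at the probes tested. EIF2C1 by probe A_23_P11764 had Cy3 signals of 1002, 870.5, 1397.5 and 1495 and ratios of 0.025, 0.045, −0.096 and 0.044 (adjusted p = 0.720 for miR-489 and 0.663 for miR-504 in limma). EIF2C3 had Cy3 signals of 443, 410, 670 and 758 and ratios of −0.19, −0.26, 0.048 and −0.22 (adjusted p = 0.524 and 0.0839). EIF2C2, which encodes the Argonaute that can itself cut a matched messenger, had Cy3 signals of 1794, 1944, 1344 and 1505 and Cy5 signals of 3296.5, 2309.5, 2195 and 1971. Its ratios were 0.30, −0.40, 0.12 and −0.06, positive on both miR-489 arrays and negative on both miR-504 arrays, though the HSC3 signs turned under some corrections. Neither miRNA passed the test against the control (adjusted p = 0.166 and 0.146). Under the deposited normalisation EIF2C2 and EIF2C3 passed the test as lower with miR-504 (adjusted p = 0.0484 and 0.0197), as they did with normexp and loess (0.0228 and 0.0128), and without background subtraction EIF2C2 passed as higher with miR-489 (adjusted p = 0.0236).
EIF2C4 was dim in these cells. Its probe A_23_P23171 had Cy3 signals of 25, 13, 30.5 and 58.5, well above background on the HSC3 miR-504 array alone, where the ratio was 0.10. Its other probe, A_24_P941670, was not well above background on any array, and the same held for the EIF2C1 probe A_24_P96749 in Cy3, at 21.5 to 33.

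**Figure D3:**
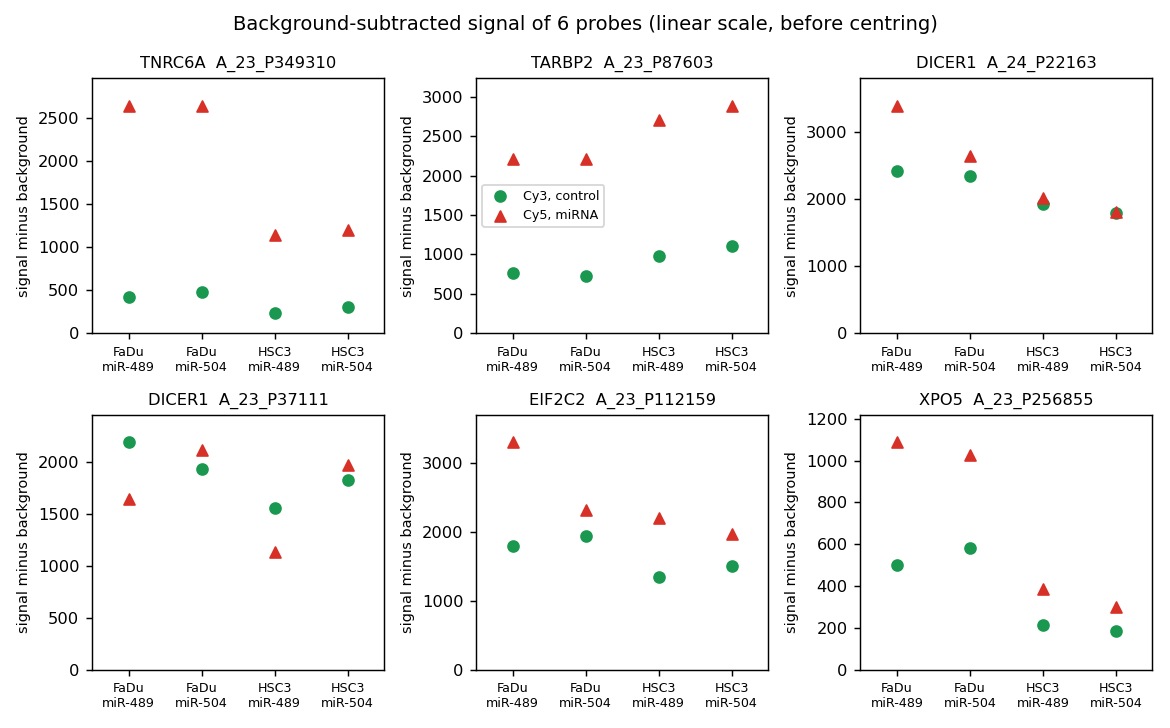
Background-subtracted signals on a linear scale before centring, in scanner units, for 6 member probes on the 4 arrays; circles are Cy3 (control transfectant) and triangles Cy5 (miRNA transfectant). TNRC6A is higher in Cy5 on every array. Before centring, DICER1 probe A_23_P37111 is lower in Cy5 only on the miR-489 arrays, and after centring its ratio is below 0 on all 4 arrays.

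Changes against the control were common over the whole array, and the member probes are read against that. Of the 19 probes, 14 of 9 genes had Cy3 well above background on all arrays and were tested among 20914 probes, and the other 5 were too dim, EIF2C4 with both of its probes. With miR-489, 5 of the 14 probes (35.7%, of 3 genes) were lower at an adjusted p under 0.05, against 26.5% of all probes tested, and 4 (28.6%, of 4 genes) were higher against 30.5%. With miR-504, 6 of the 14 (42.9%, of 3 genes) were lower against 23.4%, and 3 (21.4%) were higher against 26.2%. These shares rest on 14 probes, of which 4 are of TNRC6B and share a target, and are given as a description.

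On single arrays, where there is no replicate and no test, each gene was given by its brightest probe. The members measured numbered 9, 9, 9 and 10, with median ratios of 0.20, −0.03, 0.12 and −0.01 and ranges of −0.72 to 2.06, −0.54 to 1.83, −0.52 to 1.73 and −0.52 to 1.54. The medians over all genes were −0.03, −0.01, −0.03 and −0.02. On each array 1 member, TNRC6A, was at least 2-fold higher, against 2.89%, 2.36%, 2.71% and 1.99% of all genes. At least 2-fold lower by the brightest probe were 0 members on each array, against 8.77%, 5.97%, 8.15% and 5.11% of all genes. That count depends on the probe taken, since dimmer probes of members passed 2-fold lower. These were TNRC6B probe A_24_P786172 on the FaDu miR-489 array (−1.04) and A_32_P6415 on the FaDu miR-504 array (−1.04). DICER1 probe A_23_P37111 did so on the HSC3 miR-489 array (−1.04). With a threshold of 1.5-fold in either direction, 3, 2, 2 and 2 members passed, against 31.9%, 25.7%, 30.4% and 24.6% of all genes.

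Whether the 2 miRNAs differed from each other was read from the contrast in which the control and the dyes cancel as far as they act alike on the 2 arrays of a line. None of the 14 probes passed it in limma at an adjusted p under 0.05 (0 probes, with 2 at an unadjusted p under 0.05), where 1.07% of all probes did, and 2.67% with the cell line as a block, again with 0 of the 14. The 95% intervals of the member probes lay within −0.90 and 0.85. DICER1 probe A_23_P37111 was lower with miR-489 than with miR-504 by −0.47 in FaDu and −0.71 in HSC3. Its limma difference was −0.59 (SE 0.122, 95% interval −0.90 to −0.28, adjusted p = 0.106), and the adjusted p was 0.0934 with the block. With the normexp background correction it became −0.56 (adjusted p = 0.0454), and with loess added −0.60 (adjusted p = 0.0293), so the call depends on the normalisation. The brighter DICER1 probe gave 0.15 (95% interval −0.27 to 0.58, adjusted p = 0.691), so the pair did not agree in sign.

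EIF2C2 was the other probe with an unadjusted p under 0.05. It was higher with miR-489 than with miR-504 by 0.70 in FaDu and 0.18 in HSC3, and limma gave 0.44 (95% interval 0.034 to 0.85, adjusted p = 0.245). TNRC6A differed by 0.21 (95% interval −0.23 to 0.65, adjusted p = 0.589) and TARBP2 by −0.03 (−0.30 to 0.25). XPO5 differed by 0.20 (−0.16 to 0.55), EIF2C1 by −0.08 (−0.36 to 0.20) and EIF2C3 by 0.16 (−0.17 to 0.49). Among the TNRC6B probes the brightest differed by 0.29 (−0.016 to 0.59, adjusted p = 0.291).
Of the 14 probes, 10 differed with the same sign in both lines, 7 of them higher with miR-489 and 3 lower. Over all 20914 probes 65.4% had the same sign in both lines, 36.4% higher and 29% lower. By brightest probe the median difference over 9 members was 0.23 in FaDu and 0.18 in HSC3, beside 0.0087 and 0.016 over all genes, with 0 members at least 2-fold apart in either line against 3.56% and 2.46% of all genes.

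**Figure D4:**
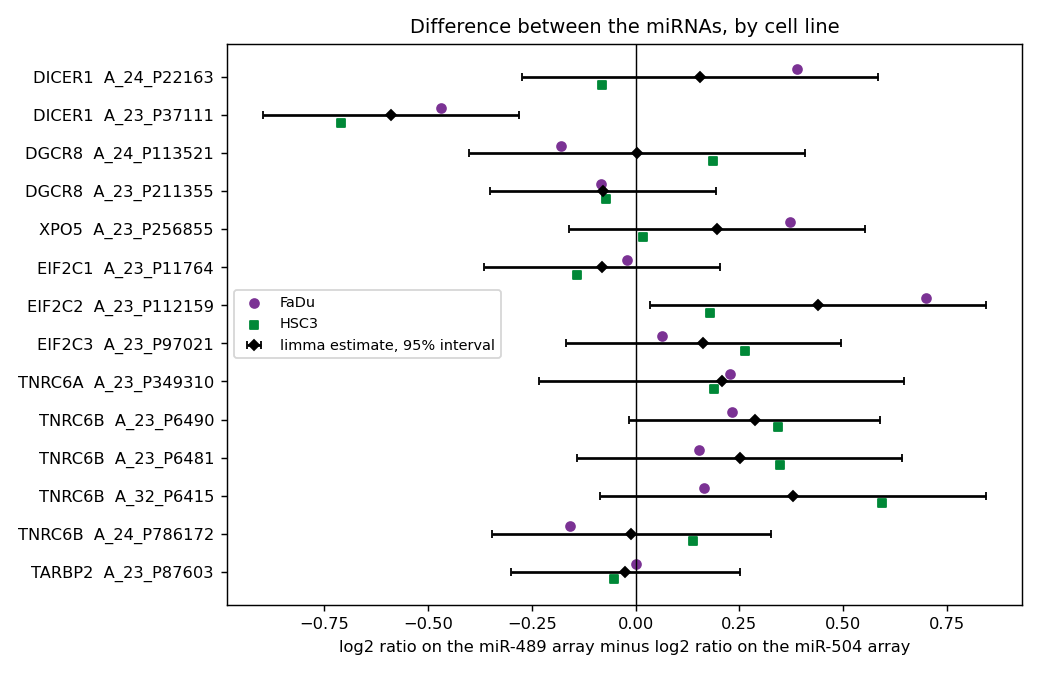
Difference between the log2 ratios of the miR-489 and the miR-504 array for the 14 member probes tested; circles are FaDu, squares HSC3, and diamonds the limma estimate with its 95% interval (4 arrays). The intervals of DICER1 probe A_23_P37111 (−0.90 to −0.28) and of EIF2C2 (0.034 to 0.85) do not reach 0 before adjustment over all probes.

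The Cy3 channel also gives the members in the control transfectants of both lines, with 2 arrays per line. The labels do not say whether the RNA of these 2 arrays was separate, so no test was made. Levels are log2 Cy3 signals minus the 75th percentile of the array and are compared only for the same probe. XPO5 differed most, at −0.84 and −1.31 in HSC3 against 0.46 and 0.70 in FaDu, a difference of −1.65 or 3.14-fold. TNRC6A was lower in HSC3 by −0.99 (1.98-fold), with means of −0.68 in HSC3 and 0.31 in FaDu. TNRC6B was lower by −0.95 at its brightest probe and by −0.52 to −0.32 at the other 3.
DICER1 was lower in HSC3 by −0.59 and −0.51 at its probes, and EIF2C2 by −0.62. DGCR8 was higher in HSC3, by 0.86 (1.82-fold) at one probe and by 0.29 at the other. EIF2C3, EIF2C1 and TARBP2 were higher in HSC3 by 0.52, 0.40 and 0.26. The arrays of the lines did not overlap for 9 of 9 members, where 76.9% of all genes did not overlap, and 1 member, XPO5, differed at least 2-fold, where 21.9% of all genes did. The median difference over the members was −0.59, beside −0.09 over 15725 genes. The median SD between the 2 arrays of a line was 0.107 in FaDu and 0.137 in HSC3.

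**Figure D5:**
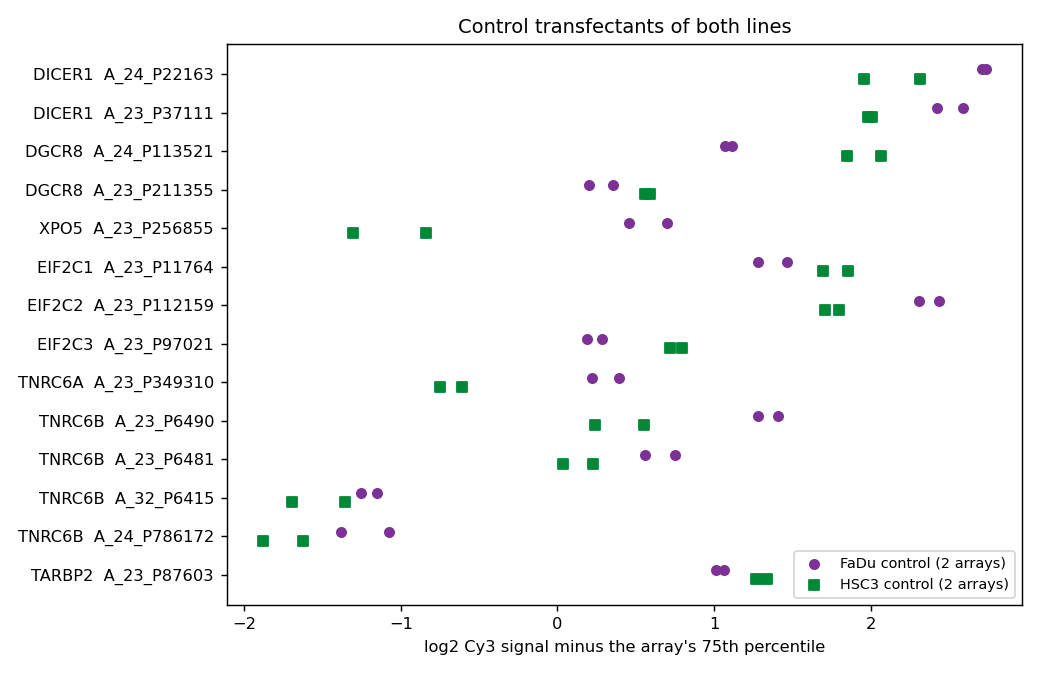
Log2 Cy3 signal of the control transfectants minus the 75th percentile of the array, for the 14 member probes measured on all arrays; circles are the 2 FaDu arrays and squares the 2 HSC3 arrays. XPO5 lies between 0.46 and 0.70 in FaDu and between −1.31 and −0.84 in HSC3, and TNRC6A and TNRC6B also lie lower in HSC3.

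The other genes of the pathway were taken from a list, of which 50 were on the array. It held Drosha, cofactors of Drosha and Dicer, RAN, TNRC6C and the PIWI genes PIWIL1 to PIWIL4. It also held the Argonaute partners, the deadenylases, the decapping and decay enzymes and the factors of miRNA turnover. By brightest probe 46 were tested, and the PIWI genes, whose Cy3 was not well above background on all arrays, were not. With miR-489, 12 were lower and 17 higher at an adjusted p under 0.05 in limma (median −0.06), and with miR-504, 12 were lower and 14 higher (median 0.07). Over 15725 genes 4376 were lower and 4740 higher with miR-489, and 3826 lower and 4197 higher with miR-504. In the contrast between the miRNAs 0 of the 46 passed, where 123 genes were lower with miR-489 and 48 higher.

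By role, the 12 genes listed under deadenylation, the shortening of a messenger's tail, gave 2 lower and 6 higher with miR-489, and 1 lower and 3 higher with miR-504. They are subunits of the tail-shortening complexes together with PABPC1, the protein that binds the tail, which was 1 of the 6 (0.27, adjusted p = 0.0479). These counts take the brightest probe of a gene, and other probes did not always bear them out with miR-489. CNOT7 counted as lower (−0.23), while its other probes gave 0.25 to 0.38. CNOT1 counted as higher (0.88), while its other probes gave −0.18 and −0.17. CNOT2 counted as higher (0.23), while its other probes gave 0.59 and −0.13. CNOT6 counted as neither (−0.14), while its other probes were lower, at −0.43 (adjusted p = 0.0125 in limma) and −1.03 (adjusted p = 0.00203). The other probes of PABPC1 lay above 0, at 0.17 and 0.50. Of 11 decapping and decay genes 3 were lower and 3 higher with miR-489, and 4 lower and 3 higher with miR-504. Of 7 processing genes 3 were lower and 3 higher with miR-489. The counts by role stand beside 4376 lower and 4740 higher of all 15725 genes with miR-489, and 3826 and 4197 with miR-504. A difference by role was not tested. In these roles, too, probes of a gene could differ with miR-489. KHSRP gave −0.12 at its brightest probe and −1.04 at its other, and DDX6 gave −0.17 and 0.41. The probes of ARS2 lay together, at 0.34, 0.31 and 0.37, and those of LSM14A gave 1.16 and 1.42. The largest falls and rises named next were also taken by brightest probe. The largest fall on both miR-489 arrays was that of RAN, the GTPase that XPO5 needs for export. It read −1.09 in FaDu and −1.32 in HSC3, beside −0.72 and −0.67 on the miR-504 arrays (adjusted p = 0.00103 and 0.00385). This held for its brightest probe, A_32_P506600, while A_24_P47547 gave −0.39 (adjusted p = 0.0136) with miR-489 and 0.059 (adjusted p = 0.591) with miR-504. The remaining RAN probe, A_23_P128126, gave −0.04 (adjusted p = 0.708) and 0.15 (adjusted p = 0.189). On the FaDu miR-504 array it was that of FXR2, an RNA-binding relative of FMR1, at −1.63, with −0.83 in HSC3 and a miR-504 estimate of −1.23 (adjusted p = 0.00654). On the HSC3 miR-504 array it was that of DCP1A, a cofactor of decapping, at −0.92, and its limma estimates were −1.03 for miR-489 and −0.88 for miR-504 (adjusted p = 0.00102 and 0.00175). The largest rise on all arrays was that of LSM14A, a P-body protein, at 1.27, 1.04, 1.05 and 0.84 (adjusted p = 0.00120 and 0.00241). Its limma estimates were 1.16 with miR-489 and 0.94 with miR-504. Some dimmer probes went further. HSP90AA1 probe A_23_P162866 had limma estimates of 1.55 with miR-489 and 1.20 with miR-504, where its brightest probe had 0.43 and 0.23. CNOT6 probe A_24_P940125 had −1.77 with miR-504, where its brightest probe had −0.24.

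Closest to the members by function, and outside the rule for naming, were Drosha, PRKRA and TNRC6C, which were chosen after their values were seen. RNASEN, the array's name for Drosha, read −0.54, −0.49, −0.48 and −0.53, and its limma estimate was −0.51 with either miRNA (adjusted p = 0.00424 and 0.00554). PRKRA, the other double-stranded RNA-binding partner of DICER1, read −0.48, −0.58, −0.48 and −0.49 (adjusted p = 0.00534 and 0.00488), opposite in sign to TARBP2. TNRC6C, the remaining GW182 gene, read −0.75, −0.86, −0.64 and −0.59 (adjusted p = 0.00367 and 0.00428), opposite in sign to the TNRC6A probe. The miRNA-against-control values of a line may share control RNA, and with the dye fixed these directions hold for Cy5 against Cy3 on these arrays.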

How the data were processed

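Total RNA of FaDu and HSC3 transfectants (Trizol, 72 h) was hybridised on 4 two-colour Agilent arrays, on 1 slide read in 1 scan. The authors deposited scanner output of Feature Extraction 9.5.3.1 with the median intensity of each spot and its background, not normalised. The deposited output also holds a log10 ratio per spot, dye-normalised by that software, and 0 or 1 marks for outlier, saturated and well-above-background spots. A deposited value table equalled these log10 ratios (largest difference 0 over 45015 features), with column medians of 0. A ScanArray scanner and DNASIS appear in the methods but not in the files. The methods also give log2 ratios with global normalisation, and this was followed.

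Outlier spots (118 to 137 per array) were left out, and there were 0 saturated spots. From each median intensity the background was subtracted, and log2 ratios were then set to an array median of 0 (0.58, 0.65, 0.58 and 0.45 removed). A ratio counts as lower only with Cy3, and as higher only with Cy5, well above background. A gene is its brightest probe by mean log2 Cy3. Probes with Cy3 well above background on all arrays (20914) were fitted with limma 3.58.1 in R 4.3.3, the lines being replicates of a miRNA, and residual degrees of freedom were 2. The prior SD was 0.135 on 3.20 degrees of freedom. P-values, adjusted by Benjamini-Hochberg at 0.05, measure the spread between these lines only, and their precision is limited by having 4 arrays.

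Gene names are those of the array, and all 62 names of the pathway list were matched to RefSeq, 60 being on the array. Probe distances come from the files' coordinates, whose build is not given in the sources used here. Named were every member and probe, the largest fall and rise per array among other pathway genes, any of these that differed between the miRNAs, PTPN11, and the 3 genes nearest to the member with the largest mean ratio. The members and lists were chosen with earlier results of these data known. Alternatives were normexp (offset 50), no background subtraction, normexp with loess (span 0.3), the deposited log ratio, the mean of a gene's probes, no filter on dim probes, a 1.5-fold threshold, quantile normalisation of Cy3, leaving out arrays, and the cell line as a block.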

Additional observations from a re-analysis of the deposited data

Results flagged for a closer look

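A pair of probes differed between the miRNAs in opposite directions in the 2 lines. DGCR8 probe A_24_P113521 was lower with miR-489 than with miR-504 in FaDu (−0.18 on the log2 scale) and higher in HSC3 (0.19). TNRC6B probe A_24_P786172 was lower with miR-489 in FaDu (−0.16) and higher in HSC3 (0.14). With 1 array per condition the difference between the lines was not tested. The spread between replicate spots gives such a difference an SD of 0.102 in FaDu and 0.0938 in HSC3, and each of the 4 values is larger than 1 such SD and smaller than 2. The brighter DICER1 probe, A_24_P22163, also differed in sign, at 0.39 in FaDu and −0.08 in HSC3, but its HSC3 value is within 1 SD. TARBP2 differed in sign as well, at 0.00096 in FaDu and −0.051 in HSC3, with both values within 1 SD. Opposite signs were common over the array, where 65.4% of 20914 probes had the same sign in both lines. The other DGCR8 probe gave −0.08 and −0.07.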

How the results depend on the processing

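No call of a probe changed direction, whereas the member medians, which lie near 0, changed sign on the FaDu miR-504 array and the HSC3 miR-489 array. The median ratio of the members was 0.20 (FaDu with miR-489), −0.03 (FaDu with miR-504), 0.12 (HSC3 with miR-489) and −0.01 (HSC3 with miR-504). Without background subtraction the first 3 were 0.31, 0.095 and 0.23, and with normexp and loess the 4 were 0.052, −0.13, −0.026 and −0.12. With the deposited log ratio they were 0.084, −0.14, −0.0075 and −0.11. The mean of probes gave 0.025 and 0.048 on the miR-489 arrays, and no filter 0.11 and −0.15 in FaDu. Members past 2-fold, 1 per array, became 3, 2, 2 and 2 at 1.5-fold. They became 2 without background subtraction on the FaDu arrays and the HSC3 miR-504 array, 2 without the filter on FaDu miR-489, 2 with the deposited ratio on HSC3 miR-489, and 0 with the mean of probes on FaDu miR-504. The median control difference of −0.59 became −0.16 without the filter. With 1 array left out, 1 miRNA keeps a lone array, which is assumed to vary like the others. Its estimate is then the ratio of that array, as given above. Some calls of member probes against the control were lost for the miRNA that lost an array, and its calls over the whole array became fewer as well. DICER1 probe A_24_P22163 gained a call with miR-489 without the FaDu miR-489 array (−0.52). Between the miRNAs such fits cannot say anything about the members, since they made no call anywhere on the array. Without the filter 5 of 18 member probes were called for miR-489 and 6 for miR-504, where 32.8% and 23.1% of all 34088 probes were. With the filter the shares over all probes were 26.5% lower and 30.5% higher for miR-489, and 23.4% lower and 26.2% higher for miR-504. For the miRNA difference normexp and normexp with loess each called 1 (DICER1). The cell line as a replicate block gave 9, 9 and 0. Cross-hybridisation between family members was not tested, and EIF2C4 is limited by signal over background.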
